A study of Homo sapiens with 6 samples.

Results

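The interferon-stimulated and RNA sensor genes described here are IFIT1, IFIT2, IFIT3, IFIT5, ISG15, DDX58, IFIH1, OAS1 and MX1. They were chosen by name, for their place in the innate response to RNA, and not by any measured value. Earlier results of these data were known when they were chosen. Each had its own row in the expression table, which made 9 of 37879 rows. DDX58 is the older symbol, used by the array, of the gene now called RIGI.

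The data were 6 Illumina HumanWG-6 v3 BeadChip arrays of total RNA, on which each gene is read by beads that carry a DNA probe. All RNA came from HEK293T cells, a line of human embryonic kidney origin that carries the SV40 large T antigen, and all cells were held in prometaphase with nocodazole, a drug that blocks spindle assembly (50 ng/ml for 15 h per the labels, with a longer time in the study's methods). The control cells had received the empty vector (3 arrays) and the Stau1 cells a plasmid for the 55-kDa isoform of Staufen1 with a FLAG tag, driven by a viral (RSV) promoter (3 arrays). Both groups were therefore transfected with plasmid DNA by lipofection, untransfected and unsynchronized cells were not part of the comparison, and the cells still carried their own STAU1 gene.

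Cells sense foreign or misplaced double-stranded RNA in the cytoplasm through receptors such as RIG-I, coded by DDX58, and MDA5, coded by IFIH1. These receptors signal through the mitochondrial adaptor MAVS and the kinase TBK1 to transcription factors that switch on interferon genes and, directly, some of the IFIT genes. Secreted interferon then acts through JAK1 and STAT factors on promoter elements called interferon-stimulated response elements (ISRE), and the induced genes, among them the IFIT, OAS and MX genes and ISG15, restrict viruses. Staufen1 is itself a protein that binds double-stranded RNA, and the comparison asks how the transcripts of this response stood in prometaphase cells with and without additional Stau1.

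The promoter stretches are shown first because the ISRE is the sequence feature by which these genes are known to be induced together. The core of the element, GAAANNGAAA on either strand, was searched in windows that ran from 250 bases before to 50 bases after each start site in RefSeq (GRCh38.p14). Of the 9 genes 8 had a window, and 6 of these 8 held a match, against 3.57% of all 35116 windows of that length and 4.38% of the 27305 genes with a window. IFIT2 had no window in the RefSeq table used. In the stretches below, read 5′ to 3′ on the gene's own strand, capitals mark the match, or overlapping matches, and a match on the opposite strand appears as TTTC, a gap and TTTC again.
IFIT1 (chr10:89392503-89392532, plus strand): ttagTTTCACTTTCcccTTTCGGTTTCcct
IFIT5 (chr10:89414546-89414575, plus strand): tagTTTCGATTTCttaagTTTCAGTTTCtg
IFIT3 (chr10:89327831-89327860, plus strand): agccgttaggTTTCATTTTCctcctcccaa
ISG15 (chr1:1013377-1013406, plus strand): gcctcggGAAAGGGAAACCGAAActgaagc
IFIH1 (chr2:162318821-162318850, minus strand): aattcgcTTTCCTTTTCTGTTTCccgcggt
MX1 (chr21:41420559-41420588, plus strand): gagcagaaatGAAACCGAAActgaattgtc

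IFIT1, ISG15, IFIT3 and IFIH1 held the printed matches upstream of the start site, and in IFIT5 the match nearest the start crossed it. In MX1, which had 3 windows, the printed match began 12 bases after the start site of its window, and 2 of the 3 windows held one. The windows of DDX58 and OAS1 held no match, which says only that these letters did not occur there. A match is a description of the letters, not evidence of a bound site.

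The level at which these genes could be read was low. The deposited signal intensity is the mean brightness of a row's beads, and the detection p-value beside it compares that brightness with negative control beads on the same array. The mean background inferred from those p-values was 80.2, 79.8 and 92.7 on control replicates 1 to 3 and 74.6, 91.0 and 92.7 on Stau1 replicates 1 to 3. A row was kept when its detection p was under 0.05 on at least 3 of the 6 arrays, and 13285 rows (35.1%) were. Of the 9 genes 4 passed: IFIT5 and ISG15 on 6 arrays, and IFIT1 and IFIH1 on 5.

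The remaining genes gave at most a trace above background. MX1, a dynamin-like GTPase that traps viral nucleocapsids, was detected on 1 array, Stau1 replicate 1 (detection p of 0.0356). IFIT2, a partner of the other IFIT proteins in RNA binding, was detected on control replicate 1 (detection p of 0.0474) and on no other array. DDX58, OAS1 and IFIT3 were detected on none, with lowest detection p-values of 0.0514, 0.105 and 0.238, so none reached the detection threshold. DDX58 lay 0.397 to 1.39 and OAS1 1.00 to 1.91 background SDs above the mean background. The row of OAS1 averages more than 1 probe, and for such rows the detection p is a combined one. OAS1 makes the 2′-5′ oligoadenylates that activate RNase L, and its relatives OAS2, OAS3 and OASL were detected on no array either. The same was true of IFIT1B, listed under its older symbol IFIT1L, and of MX2.

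**Figure D1:**
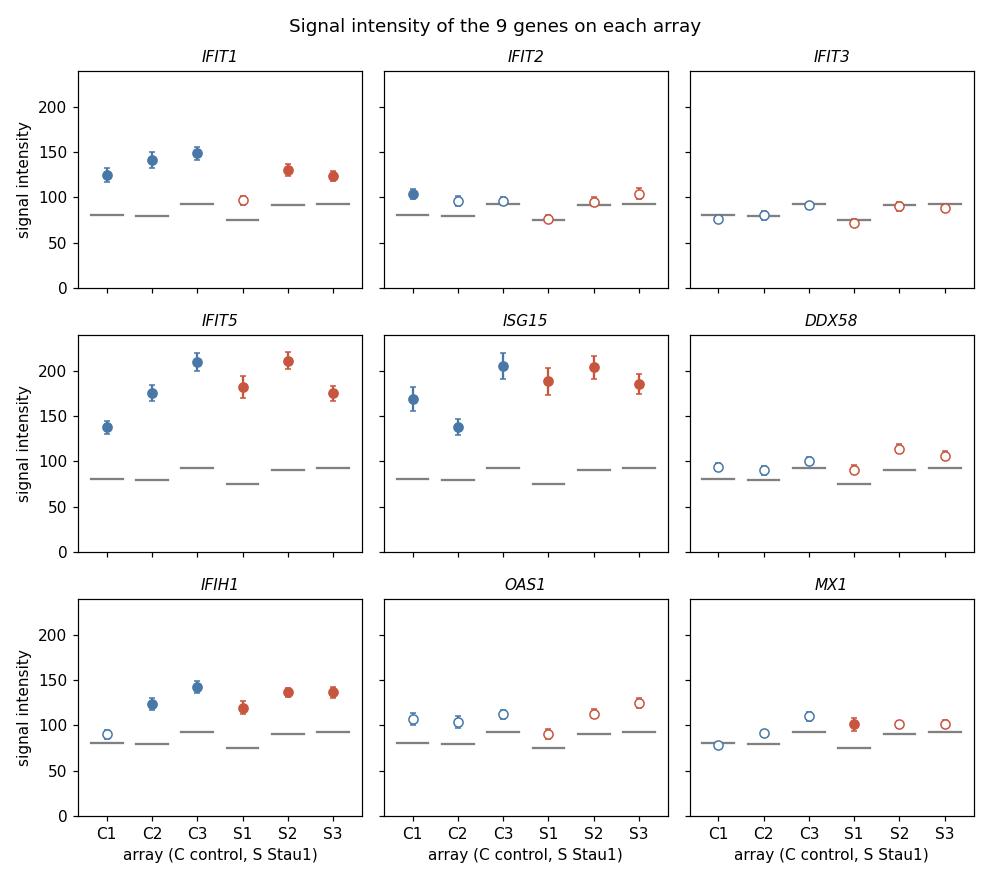
Signal intensity of each gene on each array (C, control replicates 1 to 3; S, Stau1 replicates 1 to 3), with the standard error over beads as bars. Filled points had a detection p under 0.05, open points did not, and the grey line is the mean background of that array; IFIT5 and ISG15 stood clear of it on all 6 arrays, whereas IFIT3 lay on it.

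The intensities of the 5 genes that did not pass were as follows. MX1 read 78.6, 91.6 and 110.1 in control cells and 101.2, 101.5 and 101.7 in Stau1 cells. IFIT2 read 103.9, 96.0 and 95.7 in control cells and 76.2, 95.4 and 104.2 in Stau1 cells. In both genes the ranges of the groups overlapped. DDX58 read 93.5, 90.1 and 100.0 in control cells and 91.0, 113.9 and 106.5 in Stau1 cells. OAS1 read 107.1, 104.3 and 112.5 in control cells and 90.9, 113.2 and 124.8 in Stau1 cells. IFIT3 read 76.6, 80.1 and 91.1 in control cells and 72.1, 90.3 and 88.0 in Stau1 cells. IFIT3 followed the background of the arrays, from -0.283 to 0.0183 background SDs relative to the mean. No fold change is given for these 5 genes. In a limma fit without the filter their adjusted p-value was 0.999 each, with unadjusted values from 0.0920 for IFIT2 to 0.794 for IFIT3.

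STAU1, the gene carried by the plasmid, was read first as a check of the labels. Its intensity was 1890, 2527 and 3368 in control cells and 2577, 3236 and 3153 in Stau1 cells, so the raw ranges overlapped. After background correction and quantile normalization its log2 intensity was 11.31 ± 0.10 in control and 11.46 ± 0.06 in Stau1 cells (SD, n = 3 each), a difference of 0.15 (SE 0.09, limma adjusted p = 0.999). Every Stau1 array lay above every control array, from 11.39 against at most 11.38. As the groups did not overlap in 7.91% of all kept rows, in either direction, this order does not settle the check of the labels. How much of the plasmid's transcript this row can read was not tested, since no probe sequence was used here. The control arrays differed among themselves. Across the kept rows, whose log2 values are no independent replicates, control replicate 3 correlated with each Stau1 array at r = 0.995 to 0.996, but with control replicates 1 and 2 at 0.987 and 0.992. Control replicates 1 and 2 correlated with each other at 0.990 and with the Stau1 arrays at 0.989 to 0.994. Before normalization the median intensity of the kept rows was lowest on control replicate 1 (252.7) and highest on control replicate 3 (374.8).

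Across all 13285 kept rows, limma called 0 at an adjusted p under 0.05 (0% of rows), and the lowest adjusted p was 0.999. An unadjusted p under 0.05 was found for 495 rows (3.73%), among them 1 of the 4 kept genes, IFIT1. These counts rested on single arrays: without control replicate 3, 47 rows were called, none of them from the 9 genes or the 3 pathway lists below, and 1657 had an unadjusted p under 0.05. The unadjusted count was 293 without control replicate 2 and 223 without Stau1 replicate 3, with 0 rows called in both cases. The 3 samples of a group are not stated to come from separate cultures, so p-values measure only the spread between these samples, which may be technical. The smallest p an exact permutation test can reach with 3 arrays in each group is 0.1. In bulk RNA, fewer cells that express a gene and less RNA per cell cannot be told apart.

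IFIT1 had the largest difference among the 4 kept genes. It codes for a protein that binds viral RNA lacking the host's cap methylation and blocks its translation. Its intensity was 124.7, 141.3 and 148.6 in control cells and 96.5, 130.6 and 124.0 in Stau1 cells. On this raw scale the groups overlapped, since control replicate 1 lay below Stau1 replicate 2. Above the mean background of each array the values were 44.5, 61.5 and 55.9 in control cells and 21.9, 39.6 and 31.3 in Stau1 cells, and these did not overlap. The row of IFIT1 averages more than 1 probe, and Stau1 replicate 1, its lowest array, was not above background (detection p of 0.0715).

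After normalization the log2 intensity of IFIT1 was 6.12, 6.37 and 5.94 on the control arrays and 5.36, 5.73 and 5.55 on the Stau1 arrays. Every Stau1 array lay below every control array. The means were 6.14 ± 0.22 in control and 5.55 ± 0.18 in Stau1 cells (SD, n = 3 each). The difference was -0.60 on the log2 scale (SE 0.16, 95% interval -0.94 to -0.25), a ratio of Stau1 to control of 0.661 (0.520 to 0.841). The limma p was 0.00253 before adjustment, rank 24 of the 13285 rows, and 0.999 after it, and the exact permutation p (two-sided) was 0.1, the smallest this design allows. IFIT1 thus did not pass the test. Of the 4 kept genes 1 had all Stau1 arrays below all control arrays, which 3.4% of all kept rows did, and non-overlap in either direction was found in 7.91% of rows.

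The other 3 kept genes had higher means in Stau1 cells, each with an interval that included 0. IFIT5, an IFIT protein that binds RNA with a 5′ phosphate, had an intensity of 137.7, 175.8 and 209.9 in control cells and 182.1, 211.6 and 175.4 in Stau1 cells. Its log2 values were 6.44, 6.92 and 6.77 in control and 7.01, 6.97 and 6.55 in Stau1 cells. The groups overlapped, with the lowest value on control replicate 1 and the highest on Stau1 replicate 1. The difference was 0.13 (SE 0.18, 95% interval -0.26 to 0.52, limma adjusted p = 0.999), so that ratios of Stau1 to control from 0.838 to 1.44 lay within the interval.

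ISG15 is a ubiquitin-like protein that is coupled to other proteins and also secreted. Its intensity was 169.2, 138.2 and 205.8 in control cells and 188.5, 204.1 and 185.5 in Stau1 cells. On the log2 scale it read 7.01, 6.31 and 6.72 in control and 7.08, 6.89 and 6.69 in Stau1 cells. The groups overlapped, and control replicate 2 was the low array on both scales. The difference was 0.21 (SE 0.19, 95% interval -0.20 to 0.62, limma adjusted p = 0.999), or a ratio between 0.870 and 1.53.

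IFIH1 codes for MDA5, the sensor of long double-stranded RNA. Its intensity was 90.5, 123.7 and 142.4 in control cells and 119.8, 136.7 and 136.9 in Stau1 cells, and control replicate 1 was not above background (detection p of 0.133). Its log2 values were 5.07, 5.98 and 5.83 in control and 5.98, 5.86 and 5.85 in Stau1 cells. The other 5 arrays lay between 5.83 and 5.98, so the whole difference of 0.27 (SE 0.20, 95% interval -0.18 to 0.71, limma adjusted p = 0.999) came with that 1 array. Without control replicate 1 the difference was -0.012.

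The 4 kept genes did not move together. Their median difference was 0.17 on the log2 scale, beside -0.0021 over all kept rows, and 1 was negative and 3 positive. Over the 6 arrays Pearson's r between their log2 values was 0.78 for IFIT5 and IFIH1, and negative for the other 5 pairs, from -0.62 for IFIT1 and ISG15 to -0.11 for IFIT5 and ISG15. These are descriptions over 6 arrays that share their normalization, and the value for IFIT5 and IFIH1 includes control replicate 1, which was low for both. The rows whose pattern over the arrays was most like the mean pattern of the 4 genes were UGDH (r = 0.993), BDNF (0.989) and RBM17 (0.989). As 154 of the 13223 rows compared had an r over 0.9, a high r over 6 points does not single a row out.

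Within an array, the standard error over beads was 3.59% to 8.12% of the intensity over the 9 genes. It covers the error of reading 1 array and not the spread between samples. The number of arrays limits the precision of each comparison.

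The wider pathway was described with 3 lists. Of 15 RNA sensors and adaptors, all matched to a row, 10 were kept and 0 called. Their median difference was 0.033, beside -0.0021 over all kept rows, and 9 of the 10 were positive. Several of these were small against their error: MAVS, TRAF3, TICAM1, EIF2AK2 and RNF135 differed by 0.012 to 0.040, with SEs of 0.11 to 0.18. ADAR, the enzyme that edits adenosine in double-stranded RNA, had the lowest unadjusted p (0.0289, limma adjusted p = 0.999). Its log2 values were 10.12, 9.95 and 10.25 in control and 10.39, 10.31 and 10.43 in Stau1 cells, a difference of 0.27 (95% interval 0.03 to 0.50). The groups did not overlap for ADAR, as in 7.91% of all kept rows. It was the 1 row of the 10 with an unadjusted p under 0.05, against 3.73% of all kept rows. TBK1, the kinase downstream of MAVS, differed by -0.12 and was the 1 row of the list below 0.

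Of 18 interferons, receptors and signalling genes, 13 were kept, each detected on 6 arrays, and 0 called. Their median difference was 0.012, with 7 positive and 6 negative. JAK1, the kinase of the interferon receptors, differed by 0.28 (95% interval -0.04 to 0.60) and IFNAR2, a chain of the type I interferon receptor, by -0.21 (95% interval -0.51 to 0.08). The 5 that were detected on no array were the interferon genes IFNA1, IFNB1 and IFNG, the transcription factor IRF7 and the feedback inhibitor SOCS1. The receptors and kinases were thus read well above background, while the interferons were not detectable.

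Of 46 interferon-stimulated effectors, 45 had a matched row, 22 were kept and 20 were detected on no array. None of the 22 was called. An unadjusted p under 0.05 was found for 3 of the 22, against 3.73% of all kept rows. All 3 had lower values in Stau1 cells: IFIT1, IFI35 and IFITM1. IFITM1 codes for a membrane protein that hinders virus entry, and its log2 values were 9.55, 9.31 and 8.66 in control and 8.93, 8.47 and 8.70 in Stau1 cells. The difference was -0.47 (95% interval -0.90 to -0.04, limma adjusted p = 0.999), and control replicate 3 lay within the Stau1 range. IFI35 differed by -0.47 (95% interval -0.89 to -0.06, limma adjusted p = 0.999), with control replicate 3 (5.90) below Stau1 replicate 3 (5.91). It read near background, at intensities of 96.0 to 149.6, and was detected on 3 control but only 2 Stau1 arrays. In total 15 of the 22 rows were negative, with a median of -0.085, or -0.10 over the 19 rows that are not among the 9 genes. Over all kept rows the median was -0.0021, so negative and positive rows were close to balanced there. The negative rows include GBP1, which was detected on 3 control arrays and on no Stau1 array. It passed the filter through the control group alone. With scaling to the median in place of quantile normalization 13 of 22 were negative and the median was -0.052, while the median of all rows was then 0.068. The effector median was -0.0075 when every row entered the estimate of the background. In that setting the differences of the 4 kept genes and their SEs shrank together, for IFIT1 to -0.033 (SE 0.0094).

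**Figure D2:**
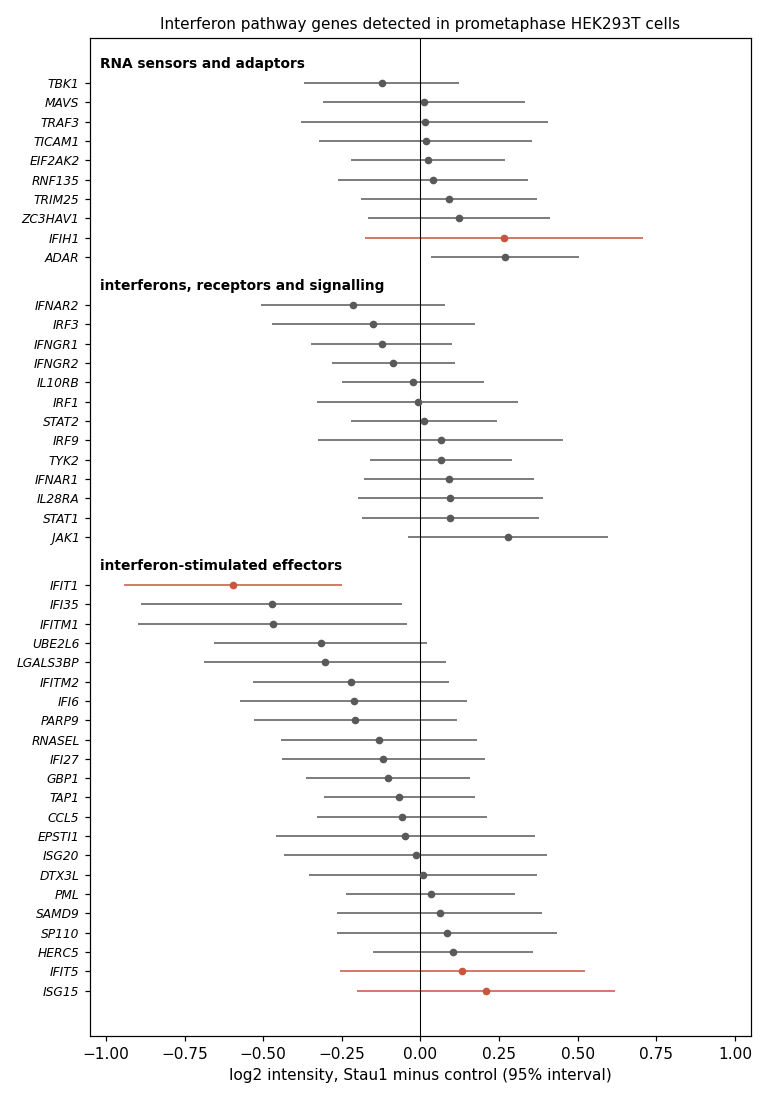
Difference in log2 intensity, Stau1 minus control, for each kept row of the 3 lists, with 95% intervals (n = 3 arrays per group) and the genes IFIT1, IFIT5, ISG15 and IFIH1 in red. IFIT1 lay lowest at -0.60, and the sensor and signalling rows lay between -0.21 and 0.28.

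Other genes that share the motif were also compared, a comparison chosen after the values of the 9 genes had been seen. Only the 9 were left out, so genes of the 3 lists stayed in where a promoter window held the motif. Leaving the 9 out, 571 rows belonged to a gene with the motif in a promoter window, and 291 (51%) were kept, against 61.1% of the rows of genes without it. Their median difference was 0.0089 beside -0.0021 for the 8057 kept rows without the motif. None was called, 9 (3.09%) had an unadjusted p under 0.05 and 32 (11%) had groups that did not overlap, against 3.55% and 7.84% of rows without the motif.

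Markers of the cells were read on the same arrays. All 8 markers of proliferating and prometaphase cells were detected on 6 arrays, with CDC20, the activator of the anaphase-promoting complex, between 9992 and 15004. None was called. Against 3.73% of all kept rows, 1 of the 8 had an unadjusted p under 0.05. This was TOP2A, the topoisomerase that untangles sister chromatids, with log2 values of 10.87, 10.95 and 10.34 in control and 10.21, 10.48 and 10.24 in Stau1 cells, a difference of -0.41 (95% interval -0.72 to -0.09, limma adjusted p = 0.999). CDK1, the mitotic kinase, read 10.63, 10.64 and 10.12 in control and 9.92, 10.34 and 10.23 in Stau1 cells, a difference of -0.30 (95% interval -0.62 to 0.03). As for IFITM1, control replicates 1 and 2 were the high arrays in both genes and control replicate 3 lay within the Stau1 range. The part of this in the effector values was not tested. Of 5 HEK293T markers NEFL and NEFM were detected on 6 arrays and NEFH on none. LHX1 was detected on 4 arrays, at intensities of 98.3 to 123.8. PAX2 was detected on 1 array, a control array, and was not kept. Of 6 leukocyte markers 3 were kept, but PTPRC, CD3E and ITGAM were detected on no array, and the summed intensity of the list was 664 to 814 in control and 642 to 786 in Stau1 cells. Of 6 fibroblast and endothelial markers 2 were kept, with summed intensities of 557 to 634 in control and 504 to 636 in Stau1 cells. The summed ranges of both lists overlapped between the groups. The 2 kept rows of the latter list had lower means in Stau1 cells, with differences of -0.25 for COL1A1 (95% interval -0.65 to 0.15) and -0.20 for PECAM1 (95% interval -0.54 to 0.13), and for PECAM1 every Stau1 array lay below every control array. Among all kept rows 3.4% had every Stau1 array below every control array. Neither COL1A1 nor PECAM1 was called (limma adjusted p = 0.999 each), and the part of other cells in the results above was not tested.

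**Figure D3:**
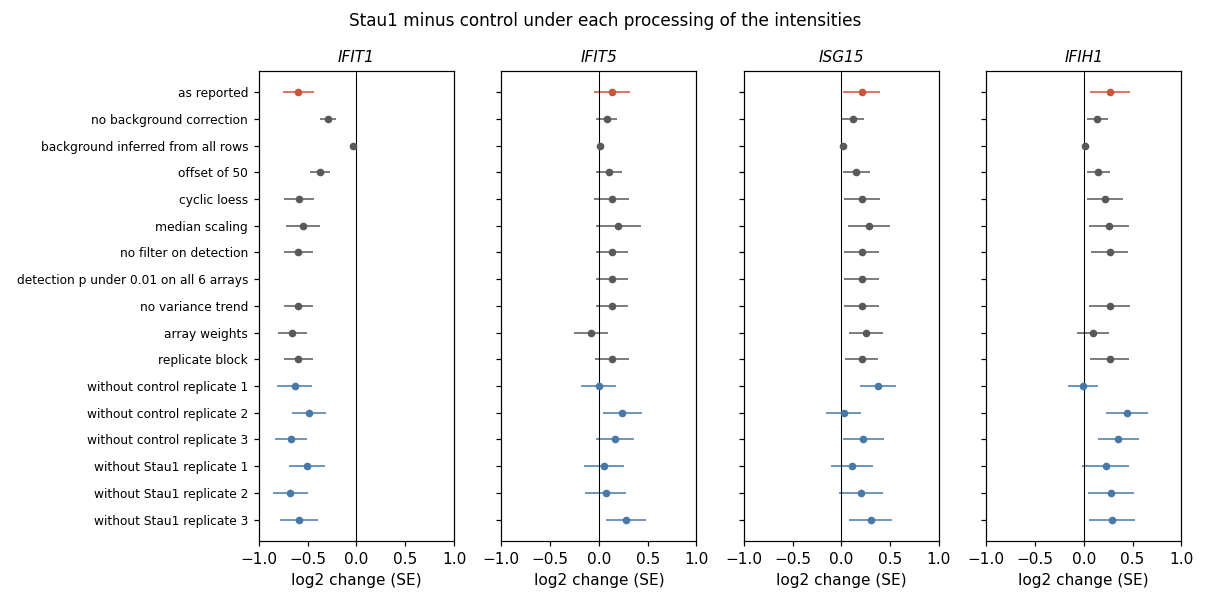
Difference in log2 intensity, Stau1 minus control, of the 4 kept genes under each way of processing the intensities, with standard errors; red marks the values reported, blue those with 1 array left out. IFIT1 stayed below 0 in every setting shown that tested it, from -0.68 to -0.033 (SE 0.0094 at the latter), whereas IFIT5 and IFIH1 crossed 0.

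The sign of the IFIT1 difference held in every setting that tested it, but its size did not. Over the settings with all arrays the difference ran from -0.66 with array weights to -0.033 when every row entered the estimate of the background. In the latter setting its SE shrank too, from 0.16 to 0.0094, and the limma p before adjustment was 0.00426. The difference was -0.29 without background correction and -0.38 with an offset of 50. In each setting with all arrays that changed the background, offset or normalization, every Stau1 array lay below every control array. Settings that changed only the filter, variance trend, array weights or replicate block used the same log2 values as reported. They could not alter this order. Leaving out each array in turn gave values between -0.68 and -0.49, and the lowest limma adjusted p of any setting, 0.115, was reached without control replicate 3. A stricter filter that asked for a detection p under 0.01 in all 6 samples removed IFIT1 and IFIH1 and left IFIT5 and ISG15.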

How the data were processed

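Total RNA of 3 control and 3 Stau1 samples was measured on Illumina HumanWG-6 v3 BeadChips, and groups were taken from the transfection named in the labels. The deposited signal intensity, per the file headers a gene profile with no normalization, averages the probes of a gene and had been neither background-subtracted nor normalized by the authors. The authors also deposited a detection p-value, the bead-to-bead standard error, in intensity units, and the number of beads. For rows of several probes the detection p-value is a combined one.

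Intensities were processed in R 4.3.3 with limma 3.58.1: a normexp correction (offset 16) with the background inferred from the detection p-values of the 30932 rows of 1 probe, quantile normalization and log2. Fold changes understate the change of dim genes because of the offset. Rows detected (p under 0.05) on 3 or more of the 6 arrays entered the fit (lmFit, then eBayes with trend), and p-values were adjusted over all of them after Benjamini and Hochberg. Alternatives changed the background, offset, normalization, filter, variance trend, array weights, replicate block, arrays and test (a t-test with equal variances).

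The 9 genes and the lists were chosen with earlier results of these data known. Genes were named as all 9 members, STAU1, up to 3 kept rows per list with the lowest unadjusted p and the 3 rows most like the members' mean pattern; other genes named were chosen after their values were seen. Promoter windows came from a RefSeq table (GRCh38.p14). Figures were drawn with matplotlib 3.10.9.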

Additional observations from a re-analysis of the deposited data

How the results depend on the processing

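None of the 9 genes and none of the rows of the 3 lists was called by limma in any setting, and the lowest adjusted p-values over settings were 0.115 for the 9 genes and 0.0669 for the lists, both without control replicate 3, where 47 other rows were called; the other settings fitted with limma called 0 rows. The number of rows with an unadjusted p under 0.05, 495 as reported, was 1657 there, 1565 without the filter, 1297 with array weights, 317 with the stricter detection filter, 293 without control replicate 2, 229 with median scaling and 223 without Stau1 replicate 3. A t-test on the log2 values reported here gave IFIT1 an unadjusted p of 0.0217 and an adjusted p of 0.998. The study's methods describe a t-test for RNA purified with Stau1, not for total RNA. IFIT1 kept its direction throughout. IFIT5 changed sign with array weights (-0.077) and ran from -0.0017 (without control replicate 1) to 0.28 with 1 array left out. IFIH1 ran from -0.012 (without control replicate 1) to 0.44 (without control replicate 2), and ISG15 from 0.023 (without control replicate 2) to 0.38 (without control replicate 1). The median of the kept genes ran from -0.0068 (without control replicate 1) to 0.28 (without Stau1 replicate 3) with 1 array left out, and from 0.0089 to 0.23 with all arrays. The median of the effector rows, followed over settings only after the data were seen, ran from -0.16 (without control replicate 1) to -0.070 with 1 array left out, and was -0.0075 when every row entered the estimate of the background. With that background estimate the differences of the 4 kept genes and their SEs shrank together. The cause of these changes was not tested. Requiring detection on all 6 arrays left 2 of the 9 genes, and a detection p under 0.01 left 3; the count was 4 with any 1 array left out. Between arrays with the same replicate number, deviations from the group means correlated at r = 0.015, 0.26 and -0.14. These values cannot settle whether the numbers pair the samples, which the sample titles do not state. With the replicate block 0 rows were called, the lowest limma adjusted p among the 9 genes was 0.986 and the median of the kept genes was 0.17. Signals close to background limit what could be read, most of all for the 5 genes that did not pass the filter.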
